A study of Mus musculus with 2 samples.

Results

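Autosomal blocks of 1 Mb in which no R-loop peak was called in mouse neural stem/progenitor cells (NSPCs) are described here. The mm9 autosomes were cut into fixed blocks of 1 Mb from position 1, and the 2380 blocks with at least 900 kb of sequence other than N were kept, leaving out 102 of 2482. Of these 2380 blocks, 266 were overlapped by no peak, or 11.2%, and are called peak-free. The other 2114 blocks held 1 or more peaks. The blocks were chosen by the peak list itself, so the absence of peaks is the rule and not a finding, and the values below describe what else these blocks hold.

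The peaks come from DRIP-seq, which cuts genomic DNA with restriction enzymes, pulls down RNA:DNA hybrids by the antibody S9.6, and sequences the DNA that is recovered. The cells were primary NSPCs from the frontal brain of C57BL/6 mice at postnatal day 7. They were grown in culture and, by the study's methods, treated with aphidicolin, an inhibitor of replicative DNA polymerases, while the sample labels name no treatment. One list of 22132 peaks was analysed, 21838 of them on autosomes, with no read count, signal or score, so the depth is unknown, the values have no replicate error, and an empty block can hold hybrids that were not called.

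An R-loop is a structure of 3 strands, in which nascent RNA pairs with its template and leaves the other DNA strand single. R-loops form during transcription, and are known at promoters with CpG islands, at the ends of genes and where the RNA strand is rich in G. Genes that a cell does not transcribe give no RNA for a hybrid. A peak list holds no expression, and transcription in the peak-free blocks was not measured here.

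The sequences below are shown because they span what the peak-free blocks contain. The first 3 are promoters, read on the coding strand from 60 bp before the annotated start, with each CpG in capitals. They are those of Fign, the gene with the highest CpG ratio at its start (chr2:63936036-63936155, minus strand), of Lrp1b, the longest gene (chr2:42509059-42509178, minus strand), and of Prl, from the family with the largest share in peak-free blocks (chr13:27149379-27149498, plus strand).
Fign promoter: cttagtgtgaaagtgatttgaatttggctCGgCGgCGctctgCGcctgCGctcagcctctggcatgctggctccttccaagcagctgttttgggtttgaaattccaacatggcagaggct
Lrp1b promoter: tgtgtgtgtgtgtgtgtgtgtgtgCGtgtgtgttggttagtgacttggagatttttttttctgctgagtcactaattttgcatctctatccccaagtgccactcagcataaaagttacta
Prl promoter: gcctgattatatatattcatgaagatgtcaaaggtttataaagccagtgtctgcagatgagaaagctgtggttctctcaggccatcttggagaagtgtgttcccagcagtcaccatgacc
The Fign promoter holds 5 CpG in these 120 bp, the Lrp1b promoter 1 and the Prl promoter 0. The last, with each G in capitals, is a window of 60 bp in which G outnumbered C by far, among 30897 G-rich windows of the peak-free blocks searched. It lies at chr7:103785781-103785840 in mm9 and is read on the plus strand.
Window in Odz4: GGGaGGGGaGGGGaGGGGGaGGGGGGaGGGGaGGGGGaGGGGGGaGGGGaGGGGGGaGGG
It has 50 G and 0 C and is a simple repeat of G and A. It lies outside annotated exons, in an intron of Odz4, where the strand shown is the coding strand. Such a run of G was thus present in a block without a called peak.

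Peak-free blocks were found on all 19 autosomes. Chromosome 1 had the highest share, 29 of 190 blocks or 15.3%, followed by chromosome 14 with 14.8% and chromosome 4 with 14.6%. Chromosome 19 had the lowest, 2 of 57 blocks or 3.51%, and chromosome 11 had 5.93%. The blocks formed 124 single blocks, 43 runs of 2, 16 runs of 3 and 2 runs of 4 neighbouring blocks. Nearest peaks lay 534 bp to 1956 kb from a block, with a median of 277 kb. The stretch between the peaks on either side of a block was 2376 kb at the median, over 263 blocks that have a peak on both sides.

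Both runs of 4 blocks hold 3 protein-coding starts each. In the run at chr2:40000001-44000000, inside a stretch of 5883 kb without a peak, these are Lrp1b, a giant receptor of the LDL receptor family, Kynu, an enzyme of tryptophan breakdown, and Arhgap15, a Rac GTPase-activating protein. The run at chr14:94000001-98000000, inside a stretch of 5049 kb, holds the starts of Pcdh9, a protocadherin, of Klhl1, a kelch-like protein of neurons, and of 4921530L21Rik. The run of 3 blocks with the longest stretch, 4234 kb at chr17:38000001-41000000, is of another kind. It holds 25 protein-coding starts, among them olfactory receptors and the genes Crisp1, Crisp2 and Crisp3.

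At the edge of the rule, 9 peak-free blocks had a peak within 10 kb of their limits. The closest was chr7:14000001-15000000, with the Sult2a sulfotransferase cluster, 534 bp from a peak. Just outside were 275 blocks with 1 peak, and their peak had a median length of 639 bp, from 102 to 10066 bp. It was shorter than 1 kb in 69.1% of them, whereas 41.2% of all autosomal peaks were shorter than 1 kb. The weakest case, chr6:46000001-47000000, was kept out by a peak of 102 bp. Blocks with 1 peak also resembled the peak-free blocks, with a median GC content of 38.2%, a median of 1 protein-coding start and no such start in 32.0%.

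The peak-free blocks were poor in G and C. Their GC content ranged from 35.7 to 45.2%, with a median of 37.7%, compared to 42.2% in the other blocks. When each peak-free block was paired with each other block, the peak-free block had the lower GC content in 87.5% of pairs, and the median was lower on 19 of 19 chromosomes. Of the peak-free blocks, 230 or 86.5% were under 40% GC, and so were 556 or 26.3% of the others. The share of peak-free blocks was 42.4% among blocks of 36 to 38% GC (153 of 361), 17.6% from 38 to 40% (73 of 415) and 5.86% from 40 to 42% (28 of 478). No block of 46% GC or more was peak-free, although low GC alone did not define the set, since most blocks under 40% GC had a peak. GC content rose and the density of restriction sites fell with the number of peaks in a block, up to medians of 46.7% GC, 19 protein-coding starts and 1419 sites per Mb in blocks of 20 or more peaks.

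**Figure D1:**
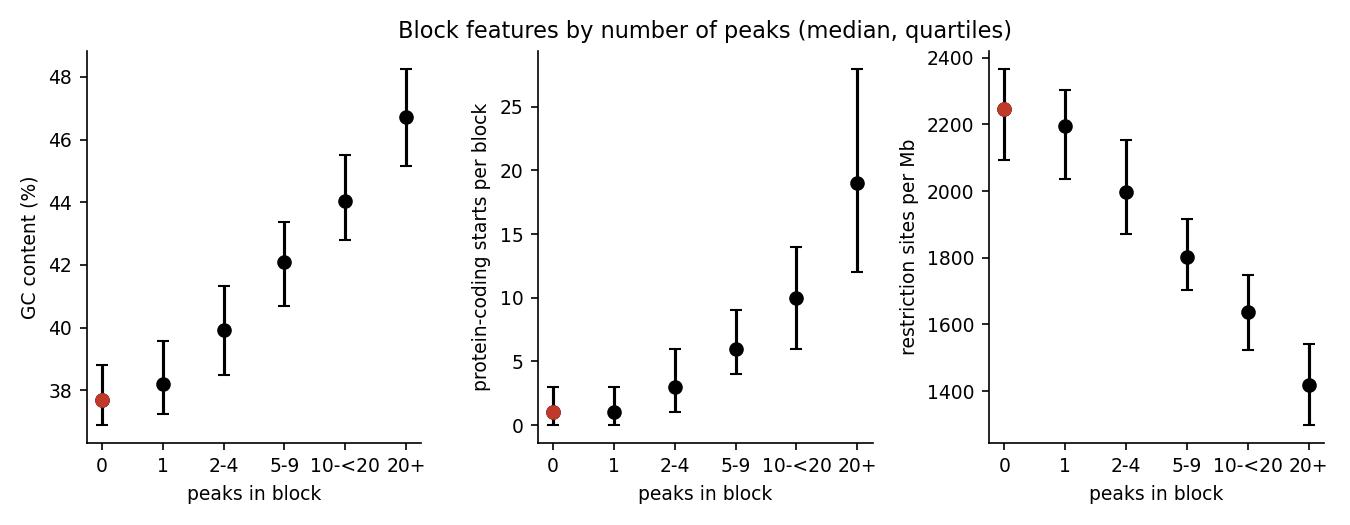
Median (points) and quartiles (bars) over blocks of GC content in percent, protein-coding gene starts per block and restriction sites per Mb, by the number of peaks in a block, with peak-free blocks in red. Peak-free blocks (37.7% GC, 1 start, 2246 sites per Mb at the median) stand next to blocks with 1 peak at the end of a gradient; axes do not start at 0.

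Other features of the sequence differed along with GC content. The CpG ratio, which is the observed number of CpG over that expected from the C and G of the block, was 0.145 at the median in peak-free blocks and 0.193 in the others. Windows of 60 bp with at least 30 G or at least 30 C numbered 132 per Mb at the median, compared to 163. The 5 enzymes used to cut the DNA, EcoRI at GAATTC, HindIII at AAGCTT, BsrGI at TGTACA, SspI at AATATT and XbaI at TCTAGA, had 2246 sites per Mb in peak-free blocks and 1795 in the others, where every block held sites and each motif reads the same on both strands. The distance per site was 0.445 kb compared to 0.557 kb. SspI, whose site has no G or C, differed most, with 908 sites per Mb compared to 527. Within a GC range the site density hardly differed, with a mean of 2215 per Mb in peak-free blocks and 2197 in the others weighted to the same GC ranges. Shorter fragments and lower GC content go together in this set, and their part in the absence of peaks cannot be told apart here.

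Repeated sequence moved with the set as well. As a measure of it, 31-mers sampled at 1 in 64 were scored as unique when they occur once in the genome. A median of 80.6% were unique in peak-free blocks and 88.1% in the others. In 24 peak-free blocks, or 9.02%, fewer than 50% were unique, as in 26 or 1.23% of the others. Reads from such blocks cannot all be placed, and the part of this in the absence of peaks was not tested. The 36 peak-free blocks of 40% GC or more were of 2 kinds, 20 under 50% unique and 16 at 50% or more. The peak-free block of highest GC, chr12:19000001-20000000 with 45.2%, was 21.2% unique and held 3 predicted genes, Gm5784, Gm6802 and Gm9257. The block of lowest GC, chr16:67000001-68000000 with 35.7%, was 88.1% unique and held the start of Cadm2, a cell adhesion gene of neurons.

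**Figure D2:**
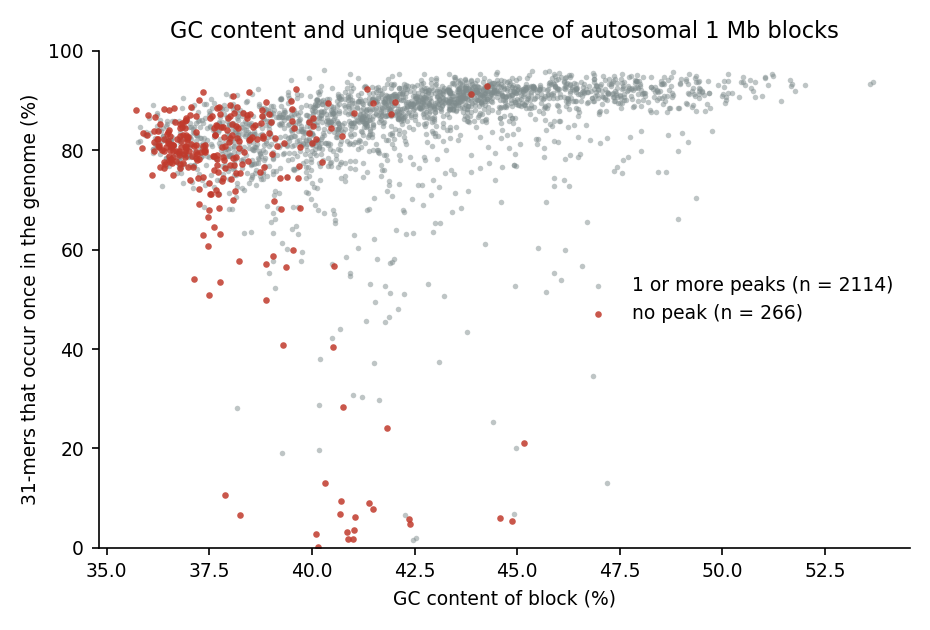
Each point is one autosomal 1 Mb block, placed by GC content (percent) and by the share of 31-mers that occur once in the genome (percent); the 266 peak-free blocks are red and the 2114 others grey. Most red points lie under 40% GC with about 80% unique 31-mers, and a second group of 24 lies under 50% unique.

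Gene starts were fewer in the peak-free blocks. They held a mean of 3.89 protein-coding starts and a median of 1, compared to 9.52 and 6 in the others, and the mean was lower on 19 of 19 chromosomes. No protein-coding gene started in 106 of them, or 39.8%, compared to 7.10% of the others, and no gene of any kind in 13, or 4.89%. Protein-coding genes covered 8.13% of the block at the median, compared to 43.1%. Much of this difference went with GC content. Weighted to the GC ranges of the peak-free blocks, the others covered a mean of 24.9% of the block with protein-coding genes, compared to 19.3% in peak-free blocks. They had a mean of 3.73 starts, which is not above that of the peak-free blocks, and no start in 28.0%. With blocks under 50% unique left out, the mean starts were 2.82 in peak-free blocks and 3.32 in the weighted others, and blocks without a start made up 43.4 and 30.3%. The mean number of starts was thus lower at like GC content only without the repeated blocks, whereas blocks without a start were more frequent either way. This did not hold in every range, since from 34 to 36% GC the shares without a start were 25% of 4 peak-free blocks and 83.3% of the others, and from 40 to 42% they were 0% of 28 and 3.33%.

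**Figure D3:**
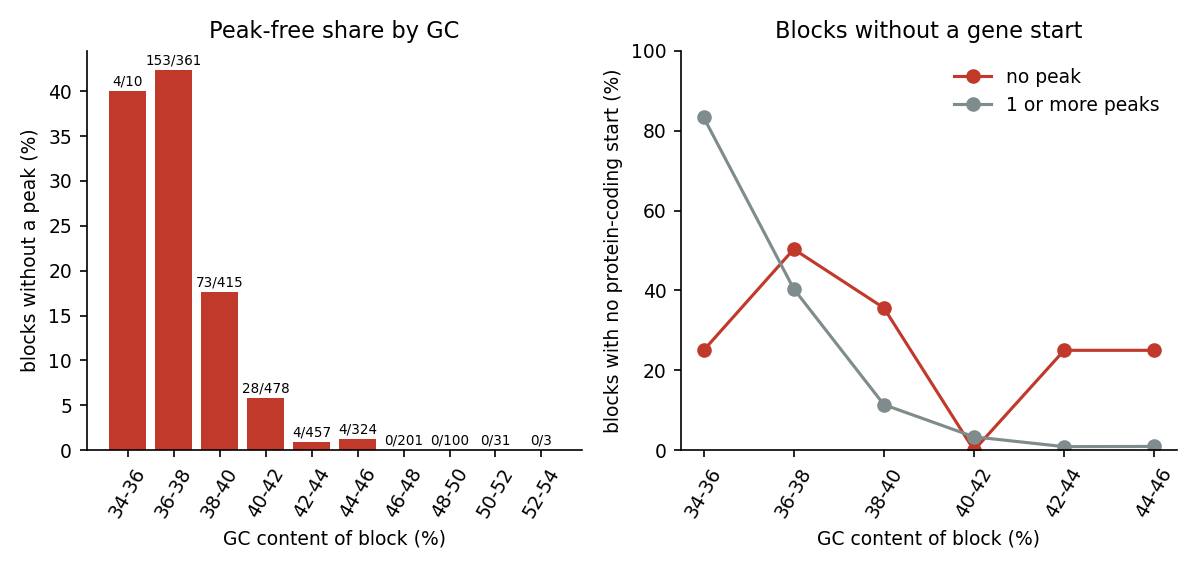
Left, share of blocks without a peak (percent) in GC ranges of 2 points, with counts above the bars; right, share of blocks with no protein-coding start (percent) in peak-free (red) and other blocks (grey) of the same ranges. From 36 to 38% GC, 50.3% of peak-free and 40.4% of other blocks had no start, from 38 to 40% the shares were 35.6 and 11.4%, from 40 to 42% they were 0 and 3.33%, and the ranges of 34 to 36, 42 to 44 and 44 to 46% hold 4 peak-free blocks each.

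The starts were unevenly spread. Only 33 peak-free blocks, or 12.4%, had 10 or more protein-coding starts, and these held 723 of all starts in peak-free blocks, or 69.9%. In 17 of the 33, at least 5 were sensory receptor genes. The 24 blocks under 50% unique held 351 starts, or 33.9%. At the other end, 95 blocks (35.7%) had neither a protein-coding start nor 300 kb of a long gene, compared to 5.53% of the others. Long genes of at least 300 kb filled 300 kb or more of 53 peak-free blocks, or 19.9%, much as in the others with 20.1%, and 4 blocks lay wholly within one gene. Peak-free blocks thus comprised gene deserts, clusters of receptor and secreted protein genes, and the inside of long genes.

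Noncoding genes followed different courses. Long intergenic noncoding RNAs were rare, with 21 of 1217 starting in peak-free blocks, or 0.0792 per Mb compared to 0.567. Over genes of all kinds, 2082 of 34212 start in peak-free blocks, or 6.09%. MicroRNA genes, with 67 of 1451 or 4.62%, and snoRNA genes, with 125 of 1450 or 8.62%, lay near this share. Pseudogenes were denser in peak-free blocks, with 2.05 per Mb compared to 1.62, but this did not hold without the repeated blocks. In blocks at least 50% unique the means were 1.46 pseudogene starts per peak-free block and 1.56 per other block. In blocks at least 80% unique they were 0.803 and 1.40. Of the segments that the annotation types as IG_V, 78 of 354 lay in peak-free blocks, or 22.0%. They were 48 of 112 on chromosome 12, the site of the immunoglobulin heavy chain locus, and 30 of 124 on chromosome 6. The kappa locus and the T cell receptor beta locus both lie on chromosome 6, and this count does not separate them. The segments on the other chromosomes gave 0 of 108 on chromosome 14, 0 of 7 on chromosome 13 and 0 of 3 on chromosome 16, and those on chromosomes 13 and 14 lie where T cell receptor loci are known.

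Gene families are counted by symbol, and 1030 of 21024 autosomal protein-coding symbols start in a peak-free block, or 4.90%, which is the background for the shares that follow. In blocks at least 50% unique this background was 3.35%. Members of a family stand next to each other, so that 1 block can hold most of them, and counts over members are not independent.

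Receptors for odours, pheromones and tastes made up many of the protein-coding genes that start in the set, but lay in few of its blocks. Such receptors are known to be expressed in sensory neurons or taste cells. In all, 364 of 1482 sensory receptor genes started in 20 peak-free blocks, or 24.6%, and were 35.3% of the protein-coding symbols there. By family these were 253 of 1105 olfactory receptor genes in 10 blocks, 48 of 205 vomeronasal type 1 receptors, 46 of 122 vomeronasal type 2 receptors and 17 of 35 bitter taste receptors. The 275 blocks with 1 peak held 236, 24, 21 and 0 members of these families, in the same order. Clusters of olfactory and vomeronasal receptors were thus not particular to peak-free blocks. The trace amine receptors, 15 genes in a single cluster, had 0 members in peak-free blocks. A peak overlapped 6 of 1482 sensory receptor genes, or 0.405%, wherever they lay, and 40.8% of all protein-coding symbols (8588 of 21024). Of the receptor genes, 364 start in blocks chosen to hold no peak. The receptor genes in other blocks are also short, with a median of 0.972 kb compared to 16.3 kb for all protein-coding genes there. The part of length in this was not tested. The block with the most protein-coding starts, chr2:86000001-87000000, held 50, all olfactory receptors, and was 75.0% unique. Of the vomeronasal type 1 receptors, all 48 lay in peak-free blocks under 50% unique, and 0 of the 144 in blocks at least 50% unique did. The part of repeated sequence in this was not tested. Over all sensory receptors, 286 of 1367 started in peak-free blocks when blocks under 50% unique were left out, or 20.9%. In blocks at least 80% unique the share was 2.89%, against a background of 1.11%, and with blocks of 500 kb it was 45.0%, against 10.5%.

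Secreted proteins and immune receptors formed further clusters. The prolactin family of pituitary and placental hormones had the largest share, 21 of 26 genes, all in chr13:27000001-28000000. This block was 76.7% unique and its GC content was 37.1%. Prl itself, the pituitary hormone, starts 1213 kb from the nearest peak, and Prl2c1, at the other end of the cluster, 422 kb. Serpins of clades A and B, mostly protease inhibitors, had 18 of 48 members in 2 blocks, and all 18 were Serpinb genes of clade B. The Klra genes, receptors of natural killer cells, gave 7 of 28 killer cell lectin-like receptors in 1 block. The major urinary proteins, pheromone carriers made in the liver, had 10 of 21 members in a block that was 9.49% unique. Defensins had 2 of 53 (Defb18 and Defb41), stefins and cystatins 1 of 20 (Cst10) and Speer genes 2 of 8 (Speer1-ps1 and Speer3). A block chosen after its values were seen, chr3:92000001-93000000, held 44 protein-coding starts of the epidermal differentiation complex, among them Ivl, which encodes involucrin, and the Sprr and Lce genes of the cornified envelope.

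Other families of tissue-specific genes lay in blocks with peaks. Of 51 keratin genes, 46 keratin-associated protein genes, 47 cytochrome P450 family 2 genes, 20 UDP-glucuronosyltransferases, 15 type I interferons, 28 Ceacam and Psg genes and 28 kallikreins, 0 started in a peak-free block. Lists of these sizes would give few or no members at the background of 4.90%. A peak overlapped 1 of 51 keratins, 6 of 47 cytochrome P450 family 2 genes, 7 of 20 UDP-glucuronosyltransferases and 0 of 15 interferons, so that most of these genes overlapped no peak although their blocks held some.

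**Figure D4:**
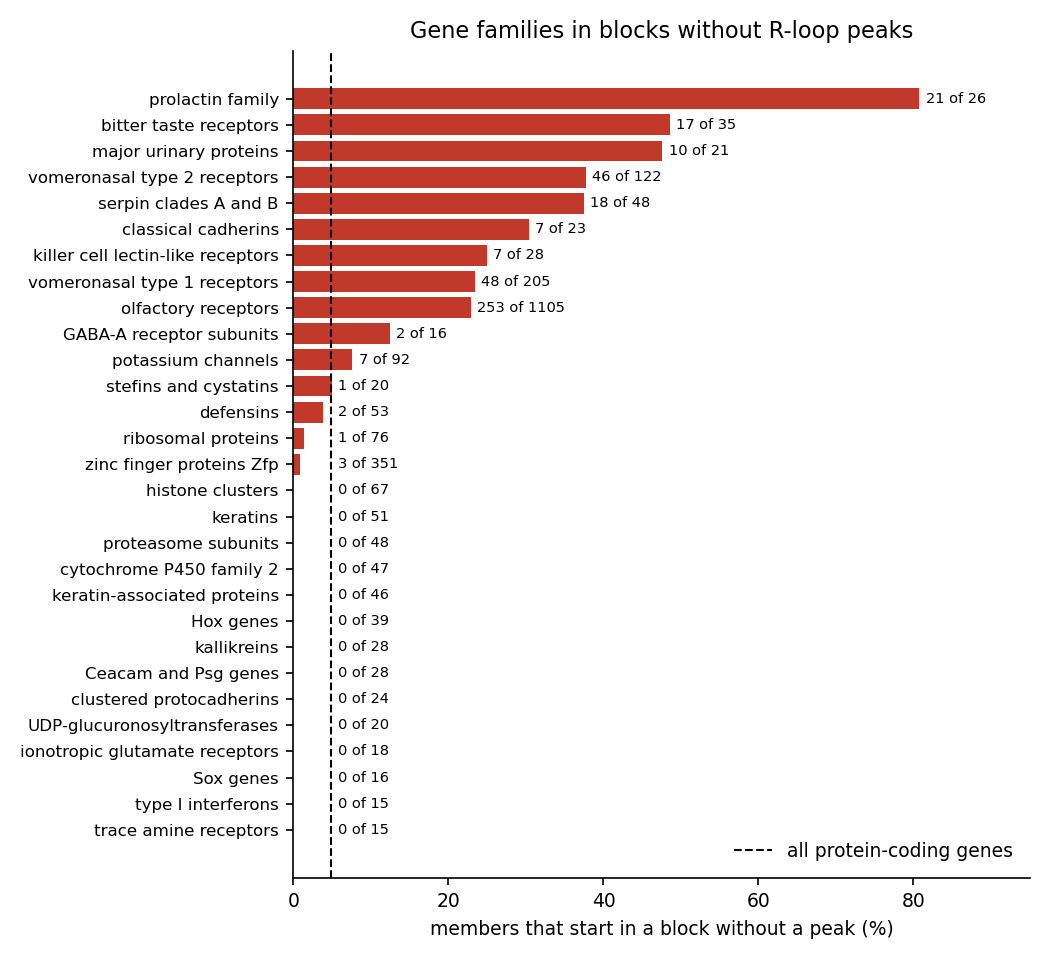
Share of the members of each gene family with at least 15 autosomal genes that start in a peak-free block (percent), with counts beside the bars and the background of 4.90% of all protein-coding genes as a dashed line. The prolactin family (21 of 26) stands highest, and 14 families have 0 members there.

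Among neural genes, adhesion molecules and channels were present. Of 23 classical cadherins, 7 started in 7 different peak-free blocks, namely Cdh6, Cdh7, Cdh8, Cdh9, Cdh10, Cdh12 and Cdh18, and 5 of these lie on chromosome 15. All 7 are type II cadherins, calcium-dependent adhesion molecules. The list of 92 potassium channel genes takes in Kcnip4, which encodes a protein that binds these channels and is no channel itself. Of the 92, 7 started in peak-free blocks (Kcna4, Kcnc2, Kcnh7, Kcnh8, Kcnip4, Kcnj3 and Kcnt2), a share of 7.61% against the background of 4.90%. Of 16 GABA-A receptor subunits, Gabra6 and Gabrb2 did, side by side in 1 block. Pcdh9 was 1 of 10 non-clustered protocadherins and Negr1 1 of 4 IgLON adhesion genes. Of 24 clustered protocadherins, 18 ionotropic glutamate receptors and 9 sodium channel alpha subunits, 0 started there. Lists of these sizes would give few or no members at the background of 4.90%. Among marker genes, Syt1, a synaptic vesicle protein of neurons, was 1 of 5 neuron markers. Of 10 markers of neural stem and progenitor cells, 0 started in a peak-free block and 7 overlapped a peak, compared to 40.8% of all protein-coding symbols. Markers of oligodendrocytes (4 genes), microglia (5) and endothelium (4) gave 0 as well, and lists this short would give few or no members at the background of 4.90%. A peak overlapped 2 of 4 oligodendrocyte, 1 of 5 microglia, 1 of 4 endothelial and 0 of 5 neuron markers.

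Lists of ribosomal protein, proteasome, zinc finger, developmental and histone genes gave few or no members in the set. Of 76 ribosomal protein genes, 1 started in a peak-free block, and this was Rpl10l, a copy of Rpl10 on chromosome 12. Of 48 proteasome subunits 0 did, and 32 overlapped a peak. Of 351 Zfp genes, which encode zinc finger proteins, 3 did (Zfp120, Zfp353 and Zfp640). The developmental Hox genes, 39 in all, the 16 Sox genes and the 67 clustered histone genes gave 0. Apart from the Zfp genes, with a share of 0.855%, lists of these sizes would give few or no members at the background of 4.90%. A peak overlapped 0 of the Hox genes, 9 of the Sox genes and 4 of the histone genes, compared to 40.8% of all protein-coding symbols. Most of the Hox and histone genes thus overlapped no peak although their blocks held some.

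Gene length had 2 sides. The 1034 protein-coding genes that start in peak-free blocks had a median length of 4.71 kb, compared to 16.3 kb for 20126 genes elsewhere, and 40.5% were shorter than 2 kb, compared to 13.4%. The means were close, 48.2 and 45.3 kb. Genes of at least 300 kb were 4.45% of those in peak-free blocks and 2.26% elsewhere, so that 46 of all 501 such genes, or 9.18%, started in a peak-free block. Sensory receptor genes, with a median of 0.963 kb, carried part of the short side: without them the medians were 8.09 and 17.9 kb. The order of the medians reversed in blocks at least 80% unique, to 50.0 kb for 182 genes in peak-free blocks and 19.0 kb elsewhere. There, 20.9% of the genes in peak-free blocks were at least 300 kb long, compared to 2.58%.

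**Figure D5:**
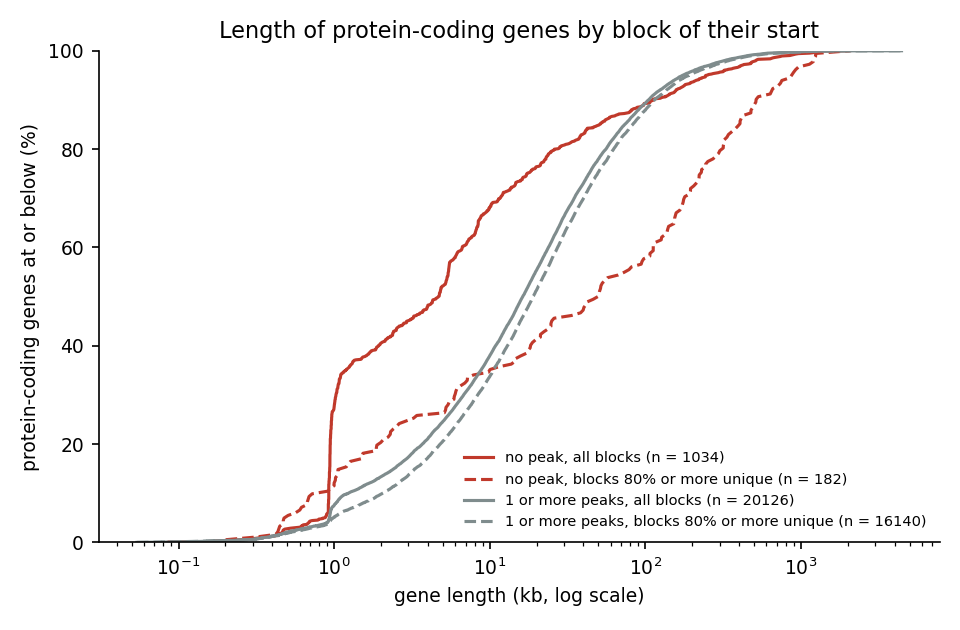
Cumulative share (percent) of protein-coding genes by length (kb, log axis), by whether they start in a peak-free block (red) or another block (grey), over all blocks (solid) and over blocks at least 80% unique (dashed). The solid red line lies left of grey for short genes, with a median of 4.71 kb, and the dashed red line lies to the right, with a median of 50.0 kb.

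The 10 longest genes that start in peak-free blocks were Lrp1b, Lingo2, Cntn5, Csmd3, Fam190a, Kcnip4, Cadm2, Cdh18, Cntnap5a and Pcdh9, from 2058 down to 873 kb. Most encode membrane or adhesion proteins of neurons. In 5 of them, Lrp1b (2058 kb), Cntn5 (1244 kb), Csmd3 (1211 kb), Cadm2 (965 kb) and Cntnap5a (897 kb), no peak was found over the whole gene. Lrp1b, Cntn5, Cadm2 and Cntnap5a lie wholly within peak-free blocks, so that for them this is the rule and not a finding. Csmd3 reaches beyond the peak-free block of its start and held no peak there either. The other 5 of the 10 reached into blocks with peaks, with 4 in Lingo2, 2 each in Cdh18 and Pcdh9, and 1 each in Fam190a and Kcnip4. In all, 8 of the 1034 genes overlapped a peak in a neighbouring block, 6 of them at least 300 kb long. Of the long genes that the study names, Csmd3 and Cadm2 started in peak-free blocks. Others started in blocks with peaks and held 25 peaks in Npas3, 23 in Cdh13, 13 in Ctnnd2, 6 in Magi2, 2 in Nrxn3 and 2 in Lsamp. These genes thus ranged from 0 to 25 peaks.

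Promoters with CpG islands were less frequent than elsewhere. Taken as at least 50% GC and a CpG ratio of at least 0.6 within 500 bp on each side of the start, they were found at 75 of 1034 starts, or 7.25%, compared to 47.0% elsewhere, and at 11.2% compared to 49.8% without the sensory receptors. The share in peak-free blocks was 28.6% in blocks at least 80% unique (51.9% elsewhere), 17.5% when only peaks of 1 kb or more counted, 14.6% with 500 kb blocks and 13.0% with shifted blocks, lower than elsewhere each time. The 75 lay in 49 blocks, with 12 at predicted genes named Gm and 11 in blocks under 50% unique. Their starts were 97.3 to 1483 kb from the nearest peak, with a median of 696 kb, distances that the choice of blocks without a peak makes long. The genes were long, with a median of 92.4 kb compared to 25.6 kb for genes with such promoters elsewhere. The highest CpG ratios were found at Fign, a microtubule-severing ATPase, with 1.07, at Gnai1, an inhibitory G protein subunit, with 0.995 and at Fam190a with 0.957. Next came Ugt8a, which makes the myelin lipid galactosylceramide, the homeobox genes Irx2 and Irx1, Elmo1, a regulator of Rac, the ephrin receptor Epha7, Fam174a and 2210408I21Rik. Irx1 and Irx2 share the block chr13:72000001-73000000, which has 43.9% GC and is 91.2% unique. Excess of G over C in the first 1 kb of the gene, as a share of both, was 0.0312 on average over the 75, compared to 0.0505 elsewhere, and positive in 58.7%, compared to 72.7%.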

How the data were processed

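DRIP-seq of primary NSPCs gave 1 deposited list of peak positions in base pairs, a chromosome, start and end per peak, which the authors deposited without count, signal or score. Reads had been trimmed with Trim Galore 0.6.6, aligned to mm9 and freed of duplicates, and peaks came from a Hidden Markov Model. How replicates were combined is not given in the sources used here. The input library was not analysed here. Starts were read as counted from 0 and printed from 1.

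Blocks, GC content, restriction sites and 31-mers were computed from the mm9 (NCBIM37) sequence, and genes were taken from GENCODE M1 of the same build, of which 34212 start in the blocks. A gene belonged to the block of its start, and a peak to each block it overlapped by 1 bp. Of 21160 protein-coding genes, repeated symbols were counted once for families. Genes were named by rule: the 10 longest, the 10 with the highest CpG ratio, those of the longest runs and of blocks extreme in GC or starts, long genes named by the study, and listed members where a list had few. The Sult2a genes and the epidermal genes were chosen after their values were seen. The members and the 39 gene lists were chosen with earlier results of these data known. With 1 list, no test was run. Some items are not reported here. G-rich windows for printing were not searched on chromosome 18 or in blocks under 50% unique. Steps were tested on simulated data. Calculations used Python 3.11.15, numpy 2.4.6 and pandas 2.3.3, and figures matplotlib 3.10.9. Alternatives were other block sizes, limits, peaks and assignments.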

Additional observations from a re-analysis of the deposited data

How the results depend on the processing

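No paired analysis was possible because 1 peak list was analysed. The share of peak-free blocks was 24.8% with blocks of 500 kb, 27.5% with peaks of at least 1 kb and 7.50% among blocks at least 80% unique, compared to 11.2%. Other directions held, but the difference in GC content was -5.11 points in blocks at least 80% unique, compared to -4.53. Mean protein-coding starts per Mb in peak-free blocks fell from 3.94 to 1.28 there and to 2.82 in blocks at least 50% unique, a limit chosen after seeing the data. Blocks without such a start were 50.3% with 500 kb blocks and 30.9% with peaks of at least 1 kb. The median gene length was the one result that reversed, to 50.0 kb in blocks at least 80% unique. It was 5.30 kb with blocks shifted by 500 kb, 5.48 kb with 500 kb blocks, 6.89 kb with peaks of at least 1 kb, 3.24 kb with at least 990 kb of sequence and in blocks at least 50% unique, and 1.03 kb over all genes. CpG island promoters were 13.0, 14.6 and 17.5% with shifted blocks, 500 kb blocks and peaks of at least 1 kb, and 28.6 and 9.37% in blocks at least 80 and 50% unique. The share of sensory receptor genes was 45.0% with 500 kb blocks, 43.6% with peaks of at least 1 kb, 22.2% with at least 990 kb of sequence, 20.9% in blocks at least 50% unique, and 2.89% in blocks at least 80% unique, where the background was 1.11%. The cause was not tested. In the remaining 29 of 54 alternatives the value stayed within the 95% interval that the number of blocks or genes gives, which is no replicate error. GC content outside masked repeats was not run, since the sequence used marks no repeats. Depth is unknown, so an empty block is one without a called peak.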
